A study of Mus musculus with 12 samples.

Results

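The Wnt ligands, receptors and regulators were read from RNA-seq gene counts of tumourspheres, floating colonies raised from single-cell suspensions. They were the protein-coding genes whose mouse symbol was Wnt, Fzd, Sfrp, Dkk, Rspo, Dvl or Lgr followed by a number, with 17 further pathway genes such as Axin1, Axin2, Lrp5, Lef1 and Apc. The rule named 64 genes in the GENCODE M21 annotation, of which 49 were among the 18278 genes counted and 15 were not analysed here. All 49 passed the filter on low counts. For a gene at or near 0 in LM1 and LM9, that passage rested on the libraries in which it was high.

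LM1 and LM9 are mouse mammary cancer cell lines that were isolated from lung metastases. Their parent was a non-metastatic line from a PIK3CA H1047R mutant tumour, mutagenised with a piggyBac transposon, so that by the study's account all 4 groups share that mutant background and carry transposon insertions. LM1 Nfib KO and LM9 Nfib KO (LM1KO and LM9KO) are pools of single-cell clones in which the transcription factor gene Nfib was targeted by CRISPR-Cas9. Each group had 3 libraries from cells that grew for 6 days from a seeding of 10000 cells per mL, with both growth factors of the medium (EGF and bFGF) at 20 ng/mL. The labels do not say whether the 3 libraries of a group came from separate cultures, so p-values measure the spread between these libraries, which may be technical.

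Wnt ligands are lipid-modified secreted proteins that bind Frizzled receptors and the co-receptors LRP5 and LRP6. In the canonical branch this stops a cytoplasmic destruction complex of Axin, APC and kinases from degrading beta-catenin, which then acts with TCF/LEF factors in the nucleus. R-spondins prolong the signal by removing the ligases RNF43 and ZNRF3 from the receptor, while secreted SFRP, DKK and WIF1 proteins dampen it. In the mammary gland the pathway is known for its part in ductal growth and in stem cell maintenance, and Wnt1 is a classical oncogene of the mouse mammary gland.

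Library totals ran from 29249075 to 37162594 counts. Values are counts scaled for library size with TMM factors (CPM), levels of different genes are compared as CPM per kilobase of exon (RPKM), and a floor of 3 counts in a library was at most 0.103 CPM. Intervals and floors cover counting error only. Some features of the libraries bear on every result. Nfib mRNA did not fall with the knockout label, with 218 ± 22.6 CPM in LM1, 235 ± 5.67 in LM1KO, 155 ± 48.8 in LM9 and 240 ± 11.2 in LM9KO (SD, n = 3). Its log2 fold change was 0.11 ± 0.16 in LM1KO and 0.68 ± 0.17 in LM9KO (SE, limma-voom adjusted p 0.533 and 0.0026). Without LM9 replicate 1 the LM9KO change was 0.93 ± 0.07 (limma-voom adjusted p 1.14e-09). These libraries hold no measure of the protein. The study used guides meant to shift the reading frame and screened its clones by immunoblot, so its knockout was judged on protein and not on mRNA. Whether the knockout-labelled pools descend from LM1 and LM9 was not tested with these counts, and each comparison is of libraries as labelled. LM9 replicate 1 lay with LM1, with Pearson correlations of log2 CPM across genes of 0.991 to 0.992 with the LM1 libraries and of 0.963 to 0.966 with LM9 replicates 2 and 3. LM9KO changes of most Wnt genes described by library are therefore given with and without that library, whose label was kept, and lower bounds printed against LM9 are the same in both. Markers of cell types moved with the knockout label as well. The 9 luminal epithelial markers analysed summed to 919 to 991 CPM in LM1, 986 to 1752 in LM9, 33.9 to 34.9 in LM1KO and 34.3 to 34.5 in LM9KO. Cldn3 was at 0 in all knockout-labelled libraries, and Cdh1 and Cldn4 had at most 3 counts in each. Of these 9 markers, 8 fell and 1 rose in each line. The 12 mesenchymal markers summed to 14215 to 16574 CPM in the parental libraries and 7167 to 7403 in the knockout-labelled ones, although 10 of the 12 rose in each line, and Cdh2 and Col1a2 were at 0 in every parental library. Of 7 endothelial markers listed, 3 were analysed. In each line 2 of them rose and 1 was not past the threshold, and without LM9 replicate 1 there were 2 higher and 1 lower in LM9KO. Kdr and Cdh5 had at most 3 counts in every parental library. The 3 markers summed to 0.202 to 1.33 CPM there and to 350.5 to 359 CPM in the knockout-labelled libraries. The 3 basal markers summed to 15.8 to 19.1 CPM in LM1, 0.443 to 17.98 in LM9 and 6.78 to 7.63 in the knockout-labelled libraries, where Krt14 and Krt17 were higher in both lines, while Trp63 averaged 17.1 CPM in LM1 and 0.302 in LM1KO. The 2 immune markers analysed, Cd68 and Csf1r, summed to 450.2 to 554 CPM in the parental libraries and 107 to 117 in the others, which followed Cd68, while Csf1r rose from at most 1 count a library to an average of 12.4 CPM in LM1KO and 12.3 in LM9KO. The part of these markers in the results was not tested. Fewer cells of a type and less RNA per cell cannot be told apart in such samples.

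The DNA before the start sites is shown first, for genes whose level rose from 0 or near 0 and for genes that fell. Of the 49 genes, 32 had an entry among the RefSeq promoter windows of GRCm38.p6, the assembly that the counts were aligned to (mm10), and 17 had none. The 250 bases before the start were searched on both strands for TTGGC, the half-site bound by NFI factors such as NFIB, and for CTTTGAT, a core that TCF/LEF factors bind. They are in capitals below, and no window of these genes held both. Each window printed ends within 1 base of the GENCODE start of its gene, lies outside every annotated gene, and is written 5′ to 3′ in the direction of the gene. Of the 12 windows of these genes that meet both conditions, every one with a motif is printed, with 2 of the 7 that hold none, and those of Ror1, Wnt1, Wnt10b, Wnt5b and Wnt6, also without a motif, are not, a choice made with the motifs known. Axin2, Dkk2 and Sfrp2 were at 0 or near 0 in LM1 and LM9 and high in the knockout-labelled libraries, Lgr4, Lgr6 and Dvl1 were lower there, and Wnt11 differed between the LM9 libraries.
Axin2, chr11:108920099-108920348, plus strand: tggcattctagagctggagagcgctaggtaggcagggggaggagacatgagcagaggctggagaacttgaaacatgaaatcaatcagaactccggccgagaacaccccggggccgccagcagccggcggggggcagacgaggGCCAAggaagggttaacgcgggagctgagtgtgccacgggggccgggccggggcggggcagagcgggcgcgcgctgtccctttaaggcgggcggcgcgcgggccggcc
Dkk2, chr3:132085042-132085291, plus strand: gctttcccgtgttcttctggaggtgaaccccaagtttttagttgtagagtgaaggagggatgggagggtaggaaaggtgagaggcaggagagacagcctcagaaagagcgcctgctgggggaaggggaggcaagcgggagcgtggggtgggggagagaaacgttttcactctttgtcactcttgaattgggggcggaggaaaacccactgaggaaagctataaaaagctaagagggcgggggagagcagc
Sfrp2, chr3:83766071-83766320, plus strand: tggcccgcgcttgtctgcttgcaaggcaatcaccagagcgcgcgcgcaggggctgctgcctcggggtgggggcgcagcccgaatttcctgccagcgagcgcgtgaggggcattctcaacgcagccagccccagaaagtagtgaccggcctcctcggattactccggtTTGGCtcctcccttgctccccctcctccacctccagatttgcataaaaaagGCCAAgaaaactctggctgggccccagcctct
Lgr4, chr2:109917397-109917646, plus strand: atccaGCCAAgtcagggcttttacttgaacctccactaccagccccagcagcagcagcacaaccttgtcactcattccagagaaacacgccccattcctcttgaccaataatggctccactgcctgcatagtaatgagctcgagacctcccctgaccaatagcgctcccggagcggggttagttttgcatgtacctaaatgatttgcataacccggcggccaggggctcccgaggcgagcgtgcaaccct
Lgr6, chr1:135105277-135105526, minus strand: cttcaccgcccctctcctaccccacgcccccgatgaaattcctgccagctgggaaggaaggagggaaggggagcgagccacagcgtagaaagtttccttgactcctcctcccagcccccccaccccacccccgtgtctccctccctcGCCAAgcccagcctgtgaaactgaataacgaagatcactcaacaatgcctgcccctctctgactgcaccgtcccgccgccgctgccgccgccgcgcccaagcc
Dvl1, chr4:155847152-155847401, plus strand: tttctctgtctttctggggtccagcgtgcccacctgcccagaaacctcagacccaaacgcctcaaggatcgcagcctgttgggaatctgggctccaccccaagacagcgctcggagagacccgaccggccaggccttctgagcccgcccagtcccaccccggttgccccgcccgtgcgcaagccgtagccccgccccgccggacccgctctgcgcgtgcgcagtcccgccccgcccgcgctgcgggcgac
Wnt11, chr7:98834862-98835111, plus strand: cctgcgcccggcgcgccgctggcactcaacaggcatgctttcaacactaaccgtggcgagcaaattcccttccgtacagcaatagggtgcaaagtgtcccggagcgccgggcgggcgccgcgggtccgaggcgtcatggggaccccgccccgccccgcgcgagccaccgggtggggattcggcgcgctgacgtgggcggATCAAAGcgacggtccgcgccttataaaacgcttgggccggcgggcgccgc

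The TTGGC half-site or its reverse complement GCCAA was in 41.5% of all 32851 RefSeq windows of that length. Among the windows of the Wnt genes it was in 6 of 17 for genes that rose in both lines, in 4 of 10 for genes that fell in both and in 6 of the remaining 14. CTTTGAT or ATCAAAG was in 3.21% of all windows and in 2 of the 41 windows of these genes, one of Wnt11 and one of Wnt5b. A match is a run of letters and not a measured site.

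The first comparison asked which genes of the pathway went with the knockout label in LM1. Of the 49 genes, 42 passed an adjusted p of 0.05 in limma-voom, 23 higher and 19 lower in LM1KO. The libraries differed in most of the genome, and 81.2% of all 18176 genes tested passed as well, 43.1% higher and 38.1% lower. With an absolute log2 fold change above 1 required beside the p, 35 of the 49 Wnt genes passed, against 55.0% of all genes. The median fitted log2 fold change was 0.09 over the Wnt genes, with the 6 at 0 in LM1 at their bound as well, and 0.08 over all genes. Under library totals with no scaling factor both medians became 0.31.

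In LM9, 39 of the 49 passed, 24 higher and 15 lower in LM9KO, beside 82.3% of all genes, 44.3% higher and 38.0% lower. With the fold bound added it was 35 genes against 57.5% of all. The median fitted log2 fold change was 1.18 over the Wnt genes, also with the 8 at 0 in LM9 at their bound, and 0.13 over all genes. Under library totals these medians became 1.62 and 0.49. The 1.18 is the fitted value of Ror1 (SE 0.75), whose LM9 libraries split. Its neighbours in rank were Fzd9 at 0.57 and Wnt10a at 1.28, so the median rests on a sparse stretch of values. Without LM9 replicate 1 the medians were 1.09 over the Wnt genes and 0.16 over all genes. Without LM9 replicate 1, 43 passed, 27 higher and 16 lower, beside 88.9% of all genes. With all 12 libraries, the same sign past the threshold in both lines was found for 37 Wnt genes, 22 higher and 15 lower, against 73.0% of all genes tested, and 0 were past the threshold with opposite signs, beside 0.0385%. Opposite signs were found for 4 of the 49 without LM9 replicate 1, beside 5.73% of all genes. Each of these counts lay near the share of all genes, other than those with the fold bound, and the difference from all genes was not tested.

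**Figure D1:**
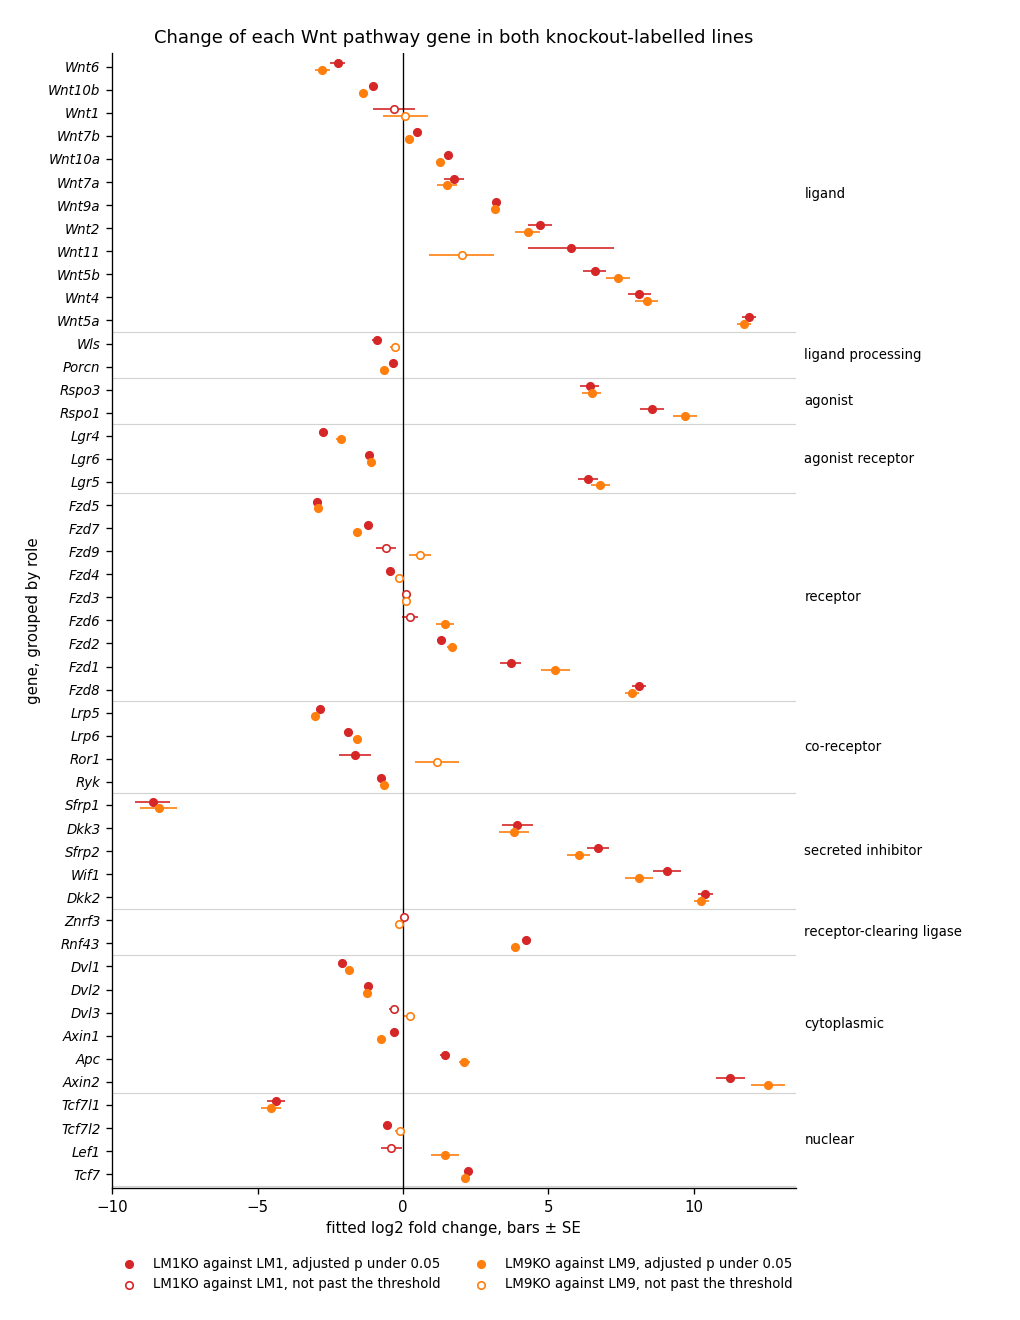
Fitted log2 fold change (limma-voom, bars ± SE) of each of the 49 Wnt pathway genes, grouped by role, in LM1KO against LM1 and LM9KO against LM9 with all 12 libraries. Fitted changes of genes at 0 in a group depend on the offset and are no bounds. The 2 points of a gene lie on the same side of 0 for nearly every gene, from Wnt5a, Axin2 and Dkk2 on the right to Sfrp1 and Tcf7l1 on the left, and on opposite sides for Ror1, Lef1, Fzd9, Dvl3, Wnt1 and Znrf3; filled points passed an adjusted p of 0.05 and open points did not.

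Of the 12 ligands, 9 rose and 2 fell in LM1KO, and 8 rose and 2 fell in LM9KO, beside 43.1% of all genes higher and 38.1% lower in LM1KO and 44.3% and 38.0% in LM9KO. The ligand that rose to the highest level from 0 was Wnt5a, which is best known for beta-catenin-independent signalling. It had 0 counts in each of the 6 LM1 and LM9 libraries, and stood at 65.2, 65.5 and 64.2 CPM in LM1KO and at 61.7, 67.5 and 61.9 CPM in LM9KO. Against the floor of 3 counts in a library, Wnt5a was at least 599-fold higher in LM1KO and at least 527-fold higher in LM9KO, with limma-voom adjusted p-values of 8.48e-12 and 9.38e-12. Wnt5a passed the count filter only through the knockout-labelled libraries, so these p-values add no separate support. The groups did not come near each other in any library.

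Wnt4 and Wnt5b, a ligand of ductal side-branching and a close relative of Wnt5a, followed the same course at lower levels. Wnt4 had 0, 0 and 1 counts in LM1 and 0 in each LM9 library, and 7.53, 6.09 and 7.03 CPM in LM1KO and 7.001, 5.91 and 6.004 CPM in LM9KO. The ratio in LM1KO was 610 with a 95% counting interval of 109 to 24110, and Wnt4 was at least 52.2-fold higher in LM9KO. Wnt5b had 1, 1 and 4 counts in LM1 and 1, 0 and 1 in LM9, and 6.42, 7.47 and 7.08 CPM in LM1KO and 6.66, 6.79 and 6.37 CPM in LM9KO. Its mean was 99.6-fold higher in LM1KO, or a ratio of 212 (58.6 to 1757) without LM1 replicate 3, which held 4 of the 6 counts in LM1 and was left out after its values were seen. The ratio in LM9KO was 264 (72.8 to 2184), or 332 (59.4 to 13130) without LM9 replicate 1. For both genes every knockout-labelled library lay far above every parental one.

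Wnt9a and Wnt10a were already expressed in the parental lines. Wnt9a rose from 4.86, 4.11 and 4.84 CPM in LM1 to 42.2, 42.8 and 42.7 in LM1KO, and from 4.79, 4.31 and 4.92 CPM in LM9 to 41.3, 41.4 and 42.2 in LM9KO. The log2 fold changes were 3.21 ± 0.09 and 3.15 ± 0.09 (SE, limma-voom adjusted p 4.02e-11 and 5.37e-11), or 3.17 ± 0.10 in LM9KO without LM9 replicate 1. Wnt10a, a ligand of skin and tooth development, was at 6.70, 5.09 and 4.08 CPM in LM1, 15.8, 14.7 and 15.3 in LM1KO, 5.47, 5.52 and 5.83 in LM9 and 13.3, 13.3 and 14.2 in LM9KO. Its log2 changes were 1.55 ± 0.13 and 1.28 ± 0.13, or 1.26 ± 0.14 without LM9 replicate 1, and neither pair of groups overlapped.

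Wnt7b, a canonical ligand expressed in mammary epithelium, was the most abundant of the 12 per length. Its mean level was 42.3 ± 2.49 RPKM in LM1, 58.9 ± 0.968 in LM1KO, 50.2 ± 5.68 in LM9 and 57.1 ± 1.42 in LM9KO (SD, n = 3). The libraries read 220, 195 and 206 CPM in LM1, 288, 284 and 293 in LM1KO, 214, 258 and 265 in LM9 and 272, 283 and 284.5 in LM9KO. The log2 change was 0.48 ± 0.08 in LM1KO (limma-voom adjusted p 0.000157) and 0.19 ± 0.08 in LM9KO (adjusted p 0.0409), where it was past the threshold in limma-voom and not in edgeR (adjusted p 0.0511) or DESeq2 (0.0621). That call was also lost when any LM1KO library, any LM9KO library or LM1 replicate 3 was left out (adjusted p 0.051 to 0.0973). Without LM9 replicate 1 the change was 0.10 ± 0.04 (adjusted p 0.0343). Exons of Wnt7b overlap the antisense gene AU022754, which was counted as well, and no source states whether the counting used strand.

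Wnt6 and Wnt10b, canonical ligands, were the ones that fell. Wnt6 was at 13.6, 9.78 and 10.2 CPM in LM1 and 2.17, 2.51 and 2.30 in LM1KO, and at 11.3, 19.6 and 17.99 CPM in LM9 and 1.97, 2.51 and 2.39 in LM9KO. The log2 changes were -2.24 ± 0.26 and -2.78 ± 0.25, or -3.03 ± 0.16 without LM9 replicate 1. Wnt10b went from 18.6, 16.9 and 17.1 CPM to 8.84, 9.20 and 7.79 in LM1KO, and from 17.2, 23.6 and 24.7 CPM to 7.93, 8.73 and 8.24 in LM9KO. Wnt10b changed by -1.03 ± 0.14 and -1.37 ± 0.14, or -1.54 ± 0.08 without LM9 replicate 1. Every knockout-labelled library of both genes lay below every parental library.

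Wnt11, which like Wnt5a is tied to beta-catenin-independent signalling, split the LM9 libraries. It had 1, 0 and 0 counts in LM1 and 1.13, 1.70 and 1.24 CPM in LM1KO, a ratio of 120 with a counting interval of 21.2 to 4767. In LM9 it was at 0, 1.57 and 1.22 CPM, and in LM9KO at 1.04, 1.29 and 1.25 CPM. The LM9KO change was past the threshold neither with all libraries (2.01 ± 1.12, limma-voom adjusted p 0.117) nor without LM9 replicate 1 (-0.22 ± 0.25, adjusted p 0.407). It did pass without LM9 replicate 2 (3.17, adjusted p 0.0248) or without LM9 replicate 3 (3.01, adjusted p 0.0395). The 3 ligands outside the rule for values by library were low. Wnt2 had 0 counts in all parental libraries and 10 to 21 counts in the knockout-labelled ones, at least 4.08-fold higher in LM1KO and 3.11-fold in LM9KO. Wnt7a rose in both lines on 4 to 30 counts a library, and Wnt1, the mammary oncogene, had 4 to 33 counts and a fitted log2 change of -0.31 ± 0.71 in LM1KO and 0.08 ± 0.76 in LM9KO, past the threshold in neither.

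**Figure D2:**
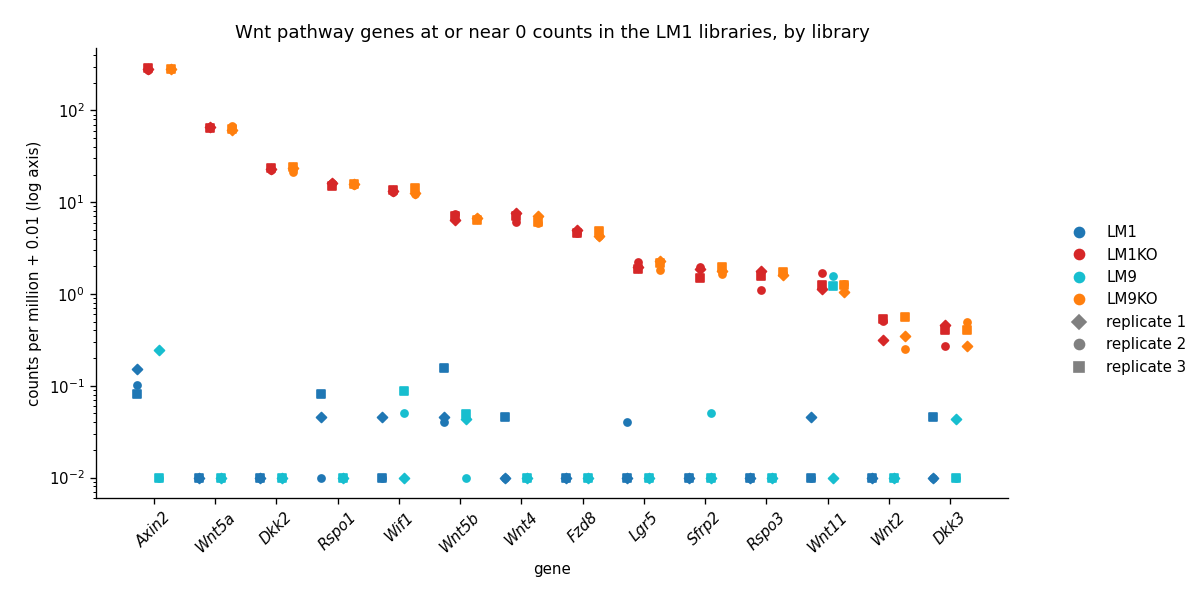
CPM with 0.01 added (log axis) in each of the 12 libraries for the 14 Wnt pathway genes that had at most 4 counts in every LM1 library, ordered by their mean in LM1KO; colours mark groups and symbols mark replicates. The red and orange points of both knockout-labelled groups lie together, from 276 to 286 CPM for Axin2 down to 0.259 to 0.487 CPM for Dkk3, while LM1 and LM9 points lie at or near the bottom, other than Wnt11 in LM9 replicates 2 and 3.

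Ligands need the acyltransferase Porcn and the carrier Wls to be modified and secreted. Wls was at 247, 260 and 248.8 CPM in LM1 and 136, 137 and 130 in LM1KO, a log2 change of -0.91 ± 0.17 (limma-voom adjusted p 0.000458). The LM9 libraries read 248, 136 and 142 CPM and those of LM9KO 138, 140 and 141. LM9 replicate 1 alone stood at the LM1 level, and the LM9KO change was -0.28 ± 0.17 with it and 0.01 ± 0.04 without it (adjusted p 0.157 and 0.896). Without LM9 replicate 2 it was -0.43 and past the threshold (adjusted p 0.038). Porcn, at 5.77 to 10.1 CPM, fell, with log2 changes of -0.33 ± 0.10 and -0.64 ± 0.10, or -0.57 ± 0.10 without LM9 replicate 1.

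Of the R-spondins analysed, Rspo1 had at most trace counts in the parental libraries and Rspo3 had none. Rspo1 had 1, 0 and 2 counts in LM1 and 0 in every LM9 library, and 16.3, 16.1 and 14.8 CPM in LM1KO and 15.8, 15.2 and 15.7 CPM in LM9KO. The ratio was 465 (counting interval 159 to 2257) in LM1KO, and Rspo1 was at least 129-fold higher in LM9KO. Rspo3 had 0 counts in all 6 parental libraries and 1.76, 1.10 and 1.56 CPM in LM1KO and 1.61, 1.68 and 1.74 CPM in LM9KO, at least 13.6-fold and 13.9-fold higher.

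Their receptors moved in opposite directions. Lgr5, a stem cell marker of the intestine and a Wnt target gene, had 0, 1 and 0 counts in LM1 and 0 in LM9, and rose to 1.94, 2.22 and 1.85 CPM in LM1KO and 2.28, 1.80 and 2.18 CPM in LM9KO. That was a ratio of 177 (31.5 to 7030) in LM1KO and at least 17.3-fold in LM9KO. Lgr4 was the most abundant of the 3 per length in LM1 (16.4 ± 0.36 RPKM against 11.03 for Lgr6), was within its spread of Lgr6 in LM9 (11.9 ± 2.81 against 10.9) and lay below it without LM9 replicate 1 (10.2 against 10.8). It fell from 95.5, 99.0 and 95.1 CPM in LM1 to 15.3, 13.9 and 13.6 in LM1KO, and from 88.9, 60.6 and 59.8 CPM in LM9 to 14.8, 15.1 and 16.8 in LM9KO. The log2 changes were -2.76 ± 0.14 and -2.15 ± 0.14, or -1.95 ± 0.06 without LM9 replicate 1, which again read like LM1. Lgr6 was at 77.1, 73.7 and 75.8 CPM in LM1, 34.5, 34.2 and 33.2 in LM1KO, 76.3, 72.7 and 74.9 in LM9 and 34.0, 35.0 and 34.4 in LM9KO, with log2 changes of -1.15 ± 0.05 and -1.12 ± 0.05, or -1.10 ± 0.04 without LM9 replicate 1. Per length, Lgr5 at 0.195 RPKM in LM1KO remained below Lgr4 at 2.42 and Lgr6 at 4.96.

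Of the 9 Frizzled receptors, 3 rose and 3 fell in LM1KO, and 4 rose and 2 fell in LM9KO, against 43.1% higher and 38.1% lower and 44.3% higher and 38.0% lower of all genes. Fzd7, known in mammary stem cells, was the most abundant per length in the parental lines (26.2 ± 0.712 RPKM in LM1, 34.6 ± 7.17 in LM9) and fell to 11.5 ± 0.265 in LM1KO and 11.3 ± 0.539 in LM9KO. Its libraries read 122, 117 and 117 CPM in LM1, 51.9, 53.2 and 50.8 in LM1KO, 119, 175 and 176 in LM9 and 48.8, 53.6 and 50.8 in LM9KO. The log2 changes were -1.19 ± 0.13 and -1.59 ± 0.13, or -1.78 ± 0.04 without LM9 replicate 1. Fzd5 fell further, from 62.0, 60.5 and 62.7 CPM in LM1 to 8.06, 7.50 and 8.01 in LM1KO and from 62.3, 46.7 and 47.7 CPM in LM9 to 6.53, 7.23 and 6.78 in LM9KO. That was -2.97 ± 0.12 and -2.92 ± 0.12 on the log2 scale (limma-voom adjusted p 7.58e-10 and 1.18e-09), or -2.78 ± 0.06 without LM9 replicate 1.

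Fzd1, Fzd2 and Fzd8 rose in both lines. Fzd8 had 0 counts in all parental libraries and 4.96, 4.63 and 4.65 CPM in LM1KO and 4.28, 4.26 and 4.78 CPM in LM9KO, at least 43.8-fold and 36.7-fold higher. Fzd1 rose from 1.81, 1.69 and 1.99 CPM in LM1 to 22.8, 24.1 and 25.1 in LM1KO, and from 2.40, 0.242 and 0.276 CPM in LM9 to 21.4, 24.6 and 21.5 in LM9KO. The mean was 13.1-fold higher in LM1KO and 23.2-fold higher in LM9KO, or 87.0-fold without LM9 replicate 1, since the other LM9 libraries had 6 and 7 counts. Fzd2 was at 11.02, 8.52 and 11.2 CPM in LM1, 25.4, 24.7 and 25.6 in LM1KO, 10.7, 6.29 and 5.63 in LM9 and 22.4, 23.4 and 24.8 in LM9KO, with log2 changes of 1.32 ± 0.16 and 1.68 ± 0.18, or 1.98 ± 0.13 without LM9 replicate 1.

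Per length, the order of the Frizzled receptors therefore differed between the groups. In LM1 it ran from Fzd7 at 26.2 ± 0.712 RPKM to Fzd5 at 8.93 ± 0.165 and Fzd6 at 8.74 ± 0.196, neighbours that lay within their spread, with Fzd8 at 0 counts at the bottom. In LM1KO it ran from Fzd7 at 11.5 ± 0.265 to Fzd6 at 10.4 ± 0.147, Fzd2 at 6.89 ± 0.129 and Fzd1 at 5.72 ± 0.274, with Fzd5 at 1.14 ± 0.0445.

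Of the 4 co-receptors all fell in LM1KO, and 3 fell in LM9KO, where Ror1 did not pass and without LM9 replicate 1 rose, beside 38.1% and 38.0% of all genes lower. Lrp5 was at 317, 281 and 302 CPM in LM1 and 41.5, 40.7 and 42.4 in LM1KO, and at 316, 331 and 350 CPM in LM9 and 38.8, 40.0 and 42.3 in LM9KO. Lrp5 changed by -2.85 ± 0.07 and -3.04 ± 0.07 (limma-voom adjusted p 1.65e-11 and 1.1e-11), or -3.07 ± 0.05 without LM9 replicate 1, and the groups were far apart in every library. Lrp6 went from 171, 193 and 201 CPM to 48.9, 51.2 and 50.8 in LM1KO and from 182, 122 and 157 CPM to 49.0, 52.3 and 50.8 in LM9KO, with log2 changes of -1.90 ± 0.12 and -1.58 ± 0.12, or -1.44 ± 0.08 without LM9 replicate 1. Ryk, a receptor tied to non-canonical signalling and the most abundant of the 4 per length in LM1 (34.2 ± 0.436 RPKM), read 153, 157 and 154 CPM in LM1, 94.1, 91.7 and 91.6 in LM1KO, 153, 136 and 145 in LM9 and 90.2, 92.9 and 94.6 in LM9KO. The log2 changes of Ryk were -0.75 ± 0.05 and -0.64 ± 0.05, or -0.60 ± 0.04 without LM9 replicate 1. In LM9 the most abundant of the 4 was Lrp5, at 34.1 ± 1.70 RPKM against 31.9 ± 1.78 for Ryk, values within their spread, and at 34.96 ± 1.33 against 30.99 ± 1.28 without LM9 replicate 1 (n = 2), where they lay further apart than their SDs.

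**Figure D3:**
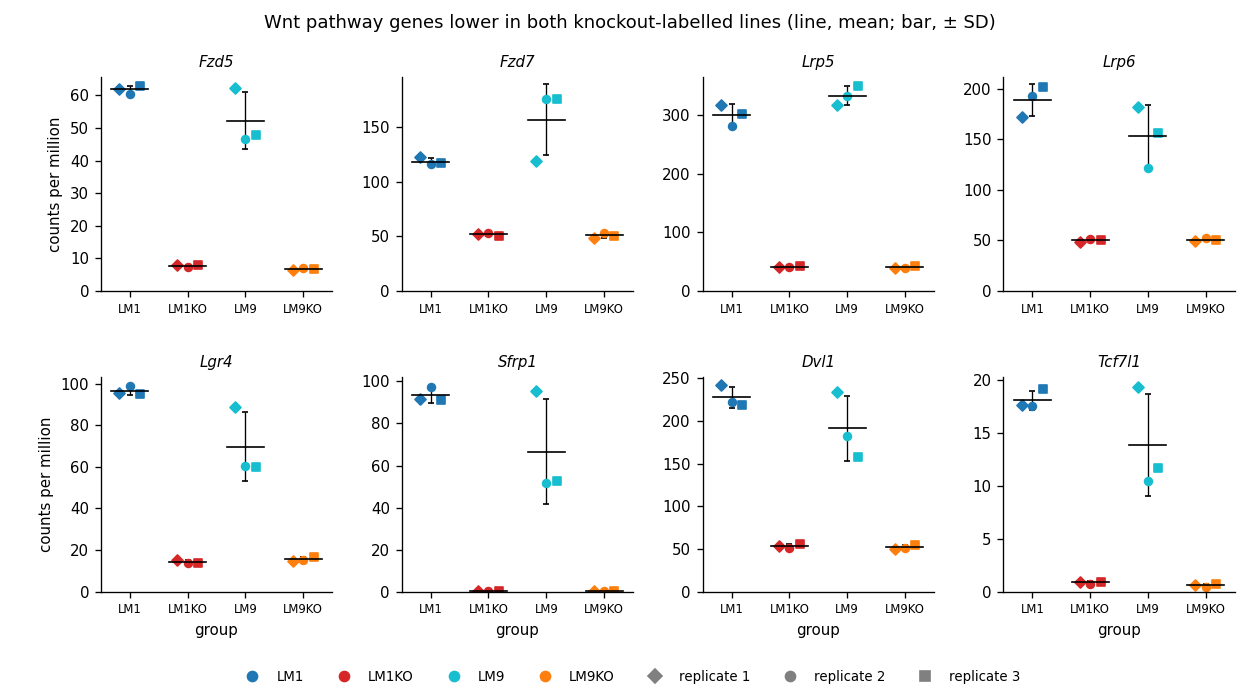
CPM in each library (points; diamonds, replicate 1), group mean (line) and SD (bar, n = 3) for 8 Wnt pathway genes that fell in both knockout-labelled lines. The knockout-labelled libraries of Lrp5 lie between 38.8 and 42.4 CPM, and in Fzd5, Lgr4, Sfrp1 and Tcf7l1 the LM9 replicate 1 diamond lies at the LM1 level above the other LM9 points.

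Among the secreted inhibitors 4 rose and 1 fell in each line (all genes, 43.1% higher and 38.1% lower in LM1KO, 44.3% and 38.0% in LM9KO). Sfrp1, a Wnt-binding decoy that is often silenced in breast cancer, was the only one expressed in the parental lines, at 91.9, 97.3 and 91.0 CPM in LM1 and 95.5, 51.7 and 52.7 CPM in LM9. It was at 0.201, 0.314 and 0.185 CPM in LM1KO and 0.311, 0.0973 and 0.182 CPM in LM9KO, from 4 to 12 counts a library. The mean was 400.2-fold lower in LM1KO and 339-fold lower in LM9KO, or 265-fold lower without LM9 replicate 1 (limma-voom adjusted p 9.03e-08, 1.72e-07 and 9.33e-14).

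Dkk2, a ligand of LRP5 and LRP6, had 0 counts in all 6 parental libraries and 22.9, 22.4 and 23.4 CPM in LM1KO and 23.8, 21.5 and 24.2 CPM in LM9KO, at least 211-fold and 192-fold higher. Wif1, which binds Wnt proteins outside the cell, had 1, 0 and 0 counts in LM1 and 0, 1 and 2 in LM9, and 13.2, 12.8 and 13.7 CPM in LM1KO and 12.5, 12.4 and 14.2 CPM in LM9KO. Its ratio was 1170 (210 to 46230) in LM1KO and 346 (118 to 1680) in LM9KO, or 218 (74.3 to 1057) without LM9 replicate 1. The intervals are wide because the parental counts were so few. Sfrp2 had 0 counts in LM1 and 0, 1 and 0 in LM9, and 1.84, 1.96 and 1.48 CPM in LM1KO and 1.76, 1.63 and 1.95 CPM in LM9KO, at least 16.2-fold higher in LM1KO and a ratio of 142 (25.2 to 5633) in LM9KO. Without LM9 replicate 1 that ratio was 89.3 (15.9 to 3542). Dkk3, outside the rule, rose to 10 to 20 counts a library from at most 1.

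The 2 ligases that clear Frizzled receptors from the membrane parted. Rnf43 was at 1.49, 1.38 and 0.976 CPM in LM1 and 23.6, 24.2 and 25.2 in LM1KO, and at 1.38, 1.93 and 1.89 CPM in LM9 and 24.3, 25.4 and 25.2 in LM9KO. Log2 changes of Rnf43 were 4.25 ± 0.16 and 3.86 ± 0.15, or 3.70 ± 0.16 without LM9 replicate 1. Znrf3, the more abundant of the pair per length in LM1 (2.84 ± 0.0943 RPKM against 0.195), read 22.1, 21.9 and 23.3 CPM in LM1, 23.1, 23.2 and 23.3 in LM1KO, 22.2, 26.6 and 31.2 in LM9 and 24.0, 23.3 and 24.3 in LM9KO. Its log2 changes of 0.05 ± 0.10 and -0.14 ± 0.10 were past the threshold in neither line (limma-voom adjusted p 0.669 and 0.205), and without LM9 replicate 1 it fell by 0.27 in LM9KO (adjusted p 0.000613). Under library totals with no scaling factor the sign of the LM9KO change turned, to 0.21.

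Axin2, a scaffold of the destruction complex and the most widely used reporter of beta-catenin signalling, reached the highest level of the genes that were near 0 in LM1. It had 4, 3 and 2 counts in LM1 and 7, 0 and 0 in LM9, and 284.5, 276 and 286 CPM in LM1KO and 280.3, 281 and 279 CPM in LM9KO. Group means differed 2765-fold in LM1KO and 3557-fold in LM9KO, and without LM9 replicate 1 Axin2 was at least 2316-fold higher in LM9KO. The limma-voom adjusted p-values were 1.92e-09 and 2.68e-09, and they add no separate support, since Axin2 passed the count filter only through the knockout-labelled libraries. In the knockout-labelled libraries Axin2 was among the most abundant of all the Wnt genes per length, at 51.2 ± 1.00 RPKM in LM1KO beside 58.9 ± 0.968 for Wnt7b.

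The other cytoplasmic genes changed less. Apc, the scaffold lost in intestinal polyposis, rose from 44.1, 47.4 and 51.8 CPM in LM1 to 133, 129 and 128 in LM1KO and from 48.0, 22.7 and 28.1 CPM in LM9 to 137, 135 and 134 in LM9KO. The log2 changes were 1.44 ± 0.18 and 2.10 ± 0.19, or 2.42 ± 0.08 without LM9 replicate 1. Axin1 fell, from 111, 108 and 113 CPM to 88.4, 88.3 and 90.8 in LM1KO and from 112, 166 and 167 CPM to 86.9, 87.1 and 85.0 in LM9KO. Its log2 change in LM1KO was -0.31 ± 0.13 (limma-voom adjusted p 0.0396), a call lost in DESeq2 (0.0570), with median-ratio factors (0.0644), with library totals (0.379) and when any single LM1, LM1KO or LM9KO library was left out (0.0553 to 0.0955), and in LM9KO it was -0.76 ± 0.13, or -0.95 ± 0.03 without LM9 replicate 1.

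The Dishevelled genes relay the signal from Frizzled receptors. Dvl1, the most abundant of the 3 per length (45.6 ± 2.49 RPKM in LM1), was at 242, 223 and 219 CPM in LM1, 54.0, 51.4 and 55.3 in LM1KO, 234, 183 and 158 in LM9 and 50.4, 50.8 and 54.5 in LM9KO. Dvl2 was at 58.9, 56.0 and 57.0 CPM in LM1, 24.2, 24.6 and 25.6 in LM1KO, 56.9, 63.4 and 53.6 in LM9 and 24.2, 24.2 and 25.1 in LM9KO. Their log2 changes were -2.09 ± 0.12 and -1.87 ± 0.12 for Dvl1 and -1.21 ± 0.07 and -1.24 ± 0.07 for Dvl2. The LM9KO changes without LM9 replicate 1 were -1.71 ± 0.06 for Dvl1 and -1.25 ± 0.06 for Dvl2. Of the exon bases of Dvl2, 18.3% lie in exons of the opposite-strand gene Acadvl. Dvl3 stood at 55.5, 54.1 and 58.9 CPM in LM1, 46.2, 44.1 and 45.2 in LM1KO, 56.8, 29.3 and 30.03 in LM9 and 43.4, 44.2 and 43.7 in LM9KO, and with all 12 libraries it passed in neither line (limma-voom adjusted p 0.134 and 0.267).

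In the nucleus, Tcf7 and Tcf7l1 moved in opposite directions. Tcf7, which encodes TCF1 and is itself a Wnt target, rose from 19.7, 22.2 and 21.7 CPM in LM1 to 99.4, 97.3 and 100.4 in LM1KO and from 20.4, 25.4 and 24.1 CPM in LM9 to 102.5, 100.2 and 99.9 in LM9KO. The log2 changes were 2.22 ± 0.08 and 2.13 ± 0.08 (limma-voom adjusted p 3e-10 and 4.34e-10), or 2.03 ± 0.05 without LM9 replicate 1. Tcf7l1, which encodes the repressor TCF3, fell from 17.6, 17.6 and 19.2 CPM to 0.931, 0.758 and 0.925 in LM1KO and from 19.4, 10.48 and 11.7 CPM to 0.596, 0.438 and 0.702 in LM9KO. Group means of Tcf7l1 differed 20.8-fold and 23.95-fold, or 19.2-fold without LM9 replicate 1. Per length, Tcf7 at 37.7 ± 0.594 RPKM was the most abundant of the 4 factors in LM1KO, and Tcf7l1 at 0.222 ± 0.0251 the least.

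Tcf7l2, the factor TCF4 of the intestine, was at 14.5, 15.3 and 15.2 CPM in LM1, 11.1, 10.3 and 9.59 in LM1KO, 15.2, 9.31 and 10.04 in LM9 and 9.72, 10.2 and 12.1 in LM9KO. It fell by 0.54 on the log2 scale in LM1KO (limma-voom adjusted p 0.00653), a call lost with library totals (0.130). In LM9KO the change was -0.10 ± 0.16, and 0.14 ± 0.11 without LM9 replicate 1, past the threshold in neither fit.

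The second question was whether the change differed between the lines. With all 12 libraries no Wnt gene passed the limma-voom test of the difference, nor did any of the 18176 genes tested (0%), while 11 of the 49 had an unadjusted p under 0.05, beside 24.7% of all genes. The edgeR test also called 0 of the 49, and DESeq2 0 of the 48 it tested. Without LM9 replicate 1, 26 of the 49 passed, 10 with the more positive change in LM1KO and 16 with the more positive change in LM9KO, beside 57.2% of all genes. The LM1 and LM9 lines themselves gave a like picture. No Wnt gene passed between LM1 and LM9 with all libraries, beside 0.00550% of all genes, with 24 of the 49 at an unadjusted p under 0.05 beside 47.7% of all genes. The edgeR test called 0 and DESeq2 10, and the shares of all genes in those fits are not given here. Without LM9 replicate 1, 29 passed, 19 higher in LM1 and 10 higher in LM9, beside 65.7% of all genes.

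Over the 49 genes, LM9 replicate 1 was nearer to the LM1 mean than to the mean of LM9 replicates 2 and 3 in 38. The rest include ties, since Rspo3, Wnt2, Wnt5a, Fzd8 and Dkk2 had 0 counts in every parental library. The share over all genes is not given here. The median absolute log2 difference, with 0.1 CPM added, was 0.05 to LM1 and 0.44 to the other LM9 libraries. These are descriptions of that library and no test.

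Ror1, a receptor tyrosine kinase that binds Wnt5a, split the LM9 libraries. It was at 28.4, 29.9 and 28.8 CPM in LM1 and 27.8 in LM9 replicate 1, and at 1.25 and 1.57 CPM in LM9 replicates 2 and 3. The knockout-labelled libraries lay between, at 8.99, 9.62 and 9.25 CPM in LM1KO and 10.6, 8.78 and 8.76 CPM in LM9KO. Ror1 fell in LM1KO by 1.65 on the log2 scale (SE 0.54, limma-voom adjusted p 0.0146), a call lost in edgeR (0.0824). In LM9KO its change was 1.18 ± 0.75 (adjusted p 0.167) with all libraries and 2.72 ± 0.21 (adjusted p 1.27e-09) without replicate 1. The test of the difference between the lines gave -2.82 ± 0.93 (adjusted p 0.202) and -4.36 ± 0.22 (6.88e-11) in the 2 fits.

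In Lef1, Fzd6 and Fzd9, too, LM9 replicate 1 lay apart from LM9 replicates 2 and 3. Lef1, a nuclear factor and Wnt target, was at 11.8, 9.90 and 12 CPM in LM1, 8.38, 8.49 and 8.51 in LM1KO, 10.4, 1.89 and 1.26 in LM9 and 7.23, 8.51 and 9.43 in LM9KO. The LM9KO change was 1.44 ± 0.50 (limma-voom adjusted p 0.0182), a call lost in edgeR (0.160), in DESeq2 (0.127), without LM9 replicate 2 (0.0894) and without LM9 replicate 3 (0.126), and 2.42 ± 0.24 without LM9 replicate 1, beside -0.39 ± 0.10 in LM1KO in that fit. Exons of Lef1 overlap the antisense gene Gm43352 over 13.75% of their bases. Fzd6, a receptor of tissue polarity, was at 43.0, 42.3 and 41.1 CPM in LM1, 49.5, 50.9 and 49.9 in LM1KO, 38.9, 12.4 and 12.4 in LM9 and 48.9, 49.1 and 52.9 in LM9KO, so that both knockout-labelled groups lay above both parental groups in every library. Its LM9KO change was 1.44 ± 0.31 (adjusted p 0.00102), or 2.02 ± 0.07 without LM9 replicate 1, and its LM1KO change 0.25 ± 0.27 (adjusted p 0.414), or 0.25 ± 0.04 (2.3e-05) in the fit without that library. Fzd9 was at 1.60, 1.72 and 1.66 CPM in LM1, 1.08, 1.07 and 1.14 in LM1KO, 1.92, 0.484 and 0.551 in LM9 and 1.01, 1.39 and 1.38 in LM9KO, with the difference between the lines at -1.83 ± 0.33 (adjusted p 0.000132) without LM9 replicate 1.

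Fzd4, a receptor of retinal vessels, stood at 15.2, 15.7 and 14.9 CPM in LM1, 11.7, 10.9 and 10.8 in LM1KO, 15.3, 9.27 and 10.98 in LM9 and 10.48, 10.8 and 10.7 in LM9KO. It fell by 0.46 in LM1KO (limma-voom adjusted p 0.008), a call lost with library totals (0.212), and its change in LM9KO was -0.14 ± 0.14 with all libraries. That change was past the threshold without LM9 replicate 2 (-0.29, limma-voom adjusted p 0.0476) and, with the opposite sign, without LM9 replicate 1 under library totals (0.50, adjusted p 2.86e-05). Fzd3 lay between 5.20 and 6.55 CPM in all 12 libraries and did not pass in either line, with log2 changes of 0.09 ± 0.09 and 0.11 ± 0.09. Without LM9 replicate 1, Dvl3 fell by 0.31 in LM1KO and rose by 0.56 in LM9KO, and Wnt11 gave a difference between the lines of 6.01 ± 0.58 (adjusted p 1.62e-07).

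**Figure D4:**
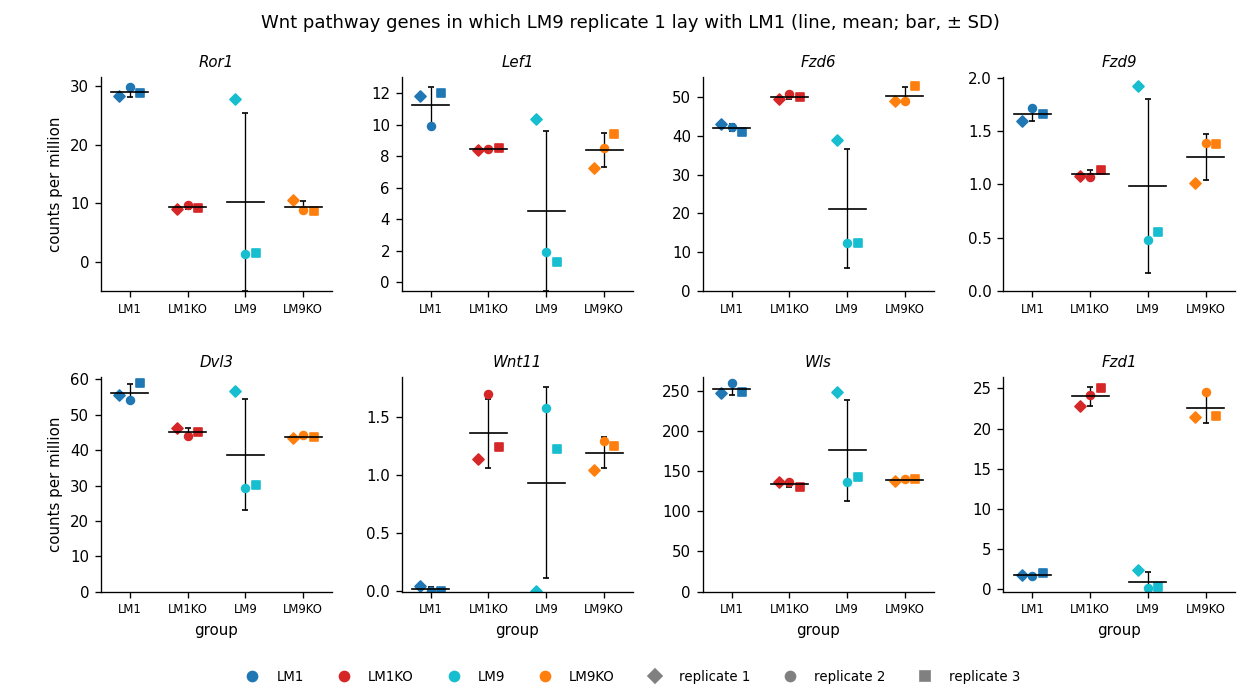
CPM in each library (points; diamonds, replicate 1), group mean (line) and SD (bar, n = 3) for 8 Wnt pathway genes whose LM9 libraries separate; axes reach below 0 where the SD does. In each panel the LM9 diamond lies at or near the LM1 points and apart from LM9 replicates 2 and 3, for Ror1 at 27.8 against 1.25 and 1.57 CPM, while LM1KO and LM9KO lie at like levels.

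The knockout-labelled pools were also compared with each other. No Wnt gene passed between LM1KO and LM9KO (0 of 49, beside 0% of all genes), 0 had an unadjusted p under 0.05 beside 0.979% of all genes, and edgeR and DESeq2 called 0. The fitted log2 differences ran from -0.23 ± 0.28 for Wnt7a to 0.61 ± 0.43 for Tcf7l1, with a median absolute value of 0.05. In the fit without LM9 replicate 1, which holds the same LM1KO and LM9KO libraries, 3 of the 49 had an unadjusted p under 0.05 beside 3.60% of all genes, Fzd5 (0.0146), Tcf7l1 (0.0229) and Wnt10a (0.0479), and 0 passed after adjustment. A fit of LM1KO and LM9KO alone gave 5 (Apc, Fzd2, Fzd5, Tcf7l1 and Wnt10a) beside 7.62%, and again 0 after adjustment. The CPM of the 2 groups did not overlap for 9 of the 49, beside 12.6% of all genes. Among them Tcf7l1 was at 0.931, 0.758 and 0.925 CPM in LM1KO and 0.596, 0.438 and 0.702 in LM9KO. The difference in log2 terms was 0.61 ± 0.24 in the fit without that library, and for the less abundant genes the standard errors leave room for larger ones.

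Other genes of the pathway were read from lists by role. Beside each count of a list stand the 43.1% of all genes that were higher and 38.1% that were lower in LM1KO, and the 44.3% and 38.0% in LM9KO. Of the 16 genes of the destruction complex and beta-catenin, 1 rose and 10 fell in LM1KO, and 3 rose and 9 fell in LM9KO, with medians of -0.54 and -0.32 on the log2 scale, beside 0.08 and 0.13 over all genes. Ctnnb1, which encodes beta-catenin itself, was at 1941 CPM on average in LM1, 429 in LM1KO, 1723 in LM9 and 430 in LM9KO, log2 changes of -2.18 and -2.00. Jup, its relative plakoglobin at cell junctions, fell, with log2 changes of -3.54 and -4.12. Fbxw11, a ligase subunit that recognises phosphorylated beta-catenin, changed by -1.29 and -1.26, and Csnk1d, a casein kinase, rose by 0.51 and 0.37.

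Of the 12 nuclear co-factors analysed, 1 rose and 9 fell in LM1KO, and 3 rose and 6 fell in LM9KO, with medians of -0.58 and -0.26. The co-repressors Tle2 and Tle3 fell, with log2 changes of -2.64 and -1.27 in LM1KO and -2.88 and -1.38 in LM9KO, as did the beta-catenin partner Bcl9l with -1.52 and -1.09. Pygo1, whose product binds Bcl9 proteins, had 0 counts in every parental library and averaged 0.773 CPM in LM1KO and 0.951 in LM9KO.

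The planar polarity list had 9 genes higher and 5 lower of 14 in LM1KO, and 9 higher and 4 lower in LM9KO, with medians of 1.81 and 2.51. Celsr1, an atypical cadherin, averaged 0.324 CPM in LM1, 54.5 in LM1KO, 0.408 in LM9 and 55.1 in LM9KO, and Prickle2, a cytoplasmic component, 0.23, 4.61, 0.0734 and 4.47 CPM. Dact1, which binds Dishevelled, averaged 0.0204 CPM in LM1, 7.19 in LM1KO, 0.0131 in LM9 and 6.49 in LM9KO. Vangl2, the transmembrane partner of Prickle, averaged 30.6 CPM in LM1 and 22.95 in LM9 and was at 0.0175 and 0.00811 CPM in the knockout-labelled groups. Ptk7, a pseudokinase of the same branch, fell, with log2 changes of -4.94 and -4.84.

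Of 12 other antagonists and modulators analysed, 6 rose and 4 fell in LM1KO, and 8 rose and 3 fell in LM9KO, with medians of 0.79 and 1.20. Nkd2 and Nkd1, feedback inhibitors that bind Dishevelled, averaged 131 and 51.8 CPM in LM1KO and 129 and 51.3 in LM9KO, and at most 0.0959 CPM in the parental groups. Tspan12, a co-receptor component with Fzd4, rose by 4.84 and 5.61 on the log2 scale. Shisa2, which holds back Frizzled receptors, fell from 21.1 CPM in LM1 and 9.03 in LM9 to 0.0171 and 0.0168, and Reck, part of a receptor complex for Wnt7 ligands, fell, with log2 changes of -2.40 and -1.27, or -0.70 without LM9 replicate 1.

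Of 19 direct transcriptional targets analysed, 11 rose and 4 fell in LM1KO, and 13 rose and 5 fell in LM9KO, with medians of 1.23 and 1.36 on the log2 scale. Axin2, Lgr5, Rnf43, Tcf7, Lef1 and Znrf3 belong to this list as well and have been described, and Nkd1, Notum and Apcdd1 to the list before it. Among the rest, Sp5, a factor that beta-catenin activates directly in many tissues, had 0 counts in all parental libraries and averaged 3.20 CPM in LM1KO and 2.57 in LM9KO. Sox4, a transcription factor, fell, with log2 changes of -3.65 and -2.24, as did Ephb2, an ephrin receptor, with -2.05 and -1.46. Rises of Axin2, Nkd1, Sp5, Lgr5 and Rnf43 stood beside falls of Ctnnb1, Lrp5, Lrp6 and Lgr4 in the same libraries. These genes are a choice from mixed lists. Among the targets Sox4 and Ephb2 fell and Znrf3 passed in neither line with all 12 libraries. Among agonists and receptors Rspo1, Rspo3, Fzd1, Fzd2 and Fzd8 rose. Whether signalling through the pathway differed was not tested. In each of these lists the counts without LM9 replicate 1 were within 2 genes of those with it in LM9KO.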

How the data were processed

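RNA was sequenced from tumourspheres of 4 groups of 3 libraries, as single-end reads of stranded mRNA libraries. The authors aligned reads with STAR to mm10 and deposited raw counts of reads per gene, over the union of exons, whose tool versions, annotation and use of strand are not given in the sources used here. Groups followed the labels, and each of the 12 files held 18278 genes, 18268 of them matched to GENCODE M21.

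Counts were fitted with limma-voom (limma 3.58.1, edgeR 4.0.16, R 4.3.3) after TMM scaling and filterByExpr (minimum count 10), which kept 18176 genes, with 1 mean per group over all 12 libraries. Contrasts were LM1KO against LM1, LM9KO against LM9, the difference of those changes, LM1 against LM9 and LM1KO against LM9KO, with Benjamini-Hochberg adjustment over all genes in each and a threshold of 0.05. Errors of log2 changes are SE, and those of levels are SD (n = 3). A gene at 0 in every library of a group was given a bound from the floor of 3 counts per library, and one with 1 to 3 counts in the group a ratio with an exact conditional binomial (Clopper-Pearson) interval. Alternatives were edgeR, DESeq2 1.42.0, other scaling, no count filter, a replicate block, only the groups compared and leaving out each library.

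The genes and lists were chosen with earlier results of these data known. Values by library were given for genes highest of their role, for those past the threshold in both lines with an absolute log2 change above 1, and for those past it in the interaction or between lines, with or without LM9 replicate 1, with at least 1 CPM in a group; of each pathway list up to 5 were named, from the largest changes in each direction past the threshold in both lines.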

Additional observations from a re-analysis of the deposited data

Results flagged for a closer look

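The change with the knockout label differed between LM1 and LM9 for 26 of the 49 Wnt pathway genes by the limma-voom interaction test without LM9 replicate 1, beside 57.2% of all genes, and for 0 with all 12 libraries. For 4 of them the changes were past the threshold with opposite signs in that fit, beside 5.73% of all genes. Taking the LM1KO change minus the LM9KO change on the log2 scale, the difference was -4.36 for Ror1, -2.82 for Lef1, -1.83 for Fzd9 and -0.87 for Dvl3. In each of the 4 the LM1KO and LM9KO libraries were at like levels, while LM9 replicates 2 and 3 lay below both and LM1 lay above. LM9 replicate 1 was left out after the values of all genes had been seen, and why it lies with LM1 was not tested.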

How the results depend on the processing

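For the 43 genes named by the rule, in LM1KO against LM1 and LM9KO against LM9 alone, 1722 of 1804 gene-by-alternative values had the sign and the call of the reported value, 32 in 6 genes lost the call, 33 gained one and 17 in 6 genes changed sign. Leaving out 1 library gave 40 to 46 genes past the threshold for LM1KO against LM1, 38 to 43 for LM9KO against LM9, 0 to 26 for the difference of the changes, 0 to 29 for LM1 against LM9 and 0 to 0 for LM1KO against LM9KO. The 26 and the 29 came from leaving out LM9 replicate 1, and every other library gave 0 in both. Without that library, edgeR gave 26 and 29 and library totals gave 24 and 29; these combined alternatives were chosen after seeing the data. For LM1 against LM9, DESeq2 gave 10 and library totals 14 with all libraries. The shares of all genes in the edgeR, DESeq2 and library-total fits of these comparisons between lines are not given here. Their counts therefore compare fits, and not the Wnt genes with all genes. Signs turned in LM9KO against LM9 with library totals for Znrf3 (0.21), Fzd4 (0.23), Tcf7l2 (0.27) and Wls (0.076), in edgeR for Ror1 (-0.14), and without LM9 replicate 1 with library totals for Znrf3 (0.15), Fzd4 (0.50), Tcf7l2 (0.55) and Wls (0.42). Leaving out 1 library gave -0.29 to 0.078 for Fzd4, -0.23 to 0.14 for Tcf7l2, -0.43 to 0.0055 for Wls and -0.22 to 3.17 for Wnt11, each turning sign without LM9 replicate 1, where edgeR gave 0.074, 0.14, 0.0054 and -0.22; the cause was not tested. Library totals moved the all-gene median log2 change from 0.08 to 0.31 in LM1 and from 0.13 to 0.49 in LM9. The median over the Wnt genes moved from 0.09 to 0.31 and from 1.18 to 1.62. In that fit 25 Wnt genes were higher and 15 lower in LM1KO, beside 8717 higher and 5971 lower of the 18176 genes tested. In LM9KO 28 were higher and 14 lower, beside 9505 and 5495 of all genes.

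Replicate numbers did not pair the libraries, since deviations of same-numbered libraries correlated at -0.05 to 0.03. With the replicate block, 42 of the Wnt genes passed in LM1KO against LM1, 38 in LM9KO against LM9 and 0 in each other comparison. These counts are read against the 42, 39 and 0 of the main fit, since the share of all genes in the blocked fit is not given here. Genes under 3 counts a library were below what this depth can resolve.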
